A study of Mus musculus with 2 samples.

Results

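The collagen genes are described here in single cells of MC38 tumours. Members were every gene symbol of the form Col, a number, the letter a and a second number, which gave 44 of the 31053 features in the files. MC38 is a mouse colon carcinoma line, injected here into the flank of C57BL/6 mice. The mice of the SHP099 group received SHP099 hydrochloride by mouth at 5 mg/kg daily for 14 days, starting 5 days after injection, when tumours averaged 100 mm3. SHP099 inhibits SHP2, a phosphatase that carries growth factor signals towards the RAS-ERK pathway. The control group received PBS over the same time and is also labelled untreated. There were 6 mice in each group, but each group gave 1 library of single cells, and the number of tumours in each is not stated. With no replicate library, treatment and library cannot be told apart. No test was possible, and intervals are exact 95% intervals that cover counting error only.

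Collagens are the main structural proteins of the extracellular matrix, and each molecule is a triple helix of 3 alpha chains. Type I collagen joins chains from Col1a1 and Col1a2, whereas type III collagen needs Col3a1 alone. These fibril-forming collagens are known as products of fibroblasts. Type IV collagen, from Col4a1 and Col4a2 in most vessels, builds the sheet of the basement membrane, and type VI collagen forms beaded filaments around cells. Fibril-associated collagens such as types XII, XIV and XVI sit on fibrils, and types XV and XVIII, the multiplexins, lie at or near basement membranes.

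The SHP099 library held 8263 barcodes with 112901642 UMIs, each UMI standing for 1 captured RNA molecule, and the control library held 8245 barcodes with 126218180 UMIs. After filters, 7702 SHP099 cells and 7688 control cells remained, with medians of 10751.5 and 9162 UMIs. The 2 libraries shared 100 barcodes. Cells were clustered without the collagen genes and named from other marker genes, so that a name with "-like" rests on those markers. A marker counted for a cluster if it had UMIs in at least 10% of its cells and was at least 2-fold above all other cells. Fibroblast-like cells were cluster 17, in which 11 of 12 fibroblast markers counted, with 57 cells in the SHP099 library and 86 in the control library. Endothelial-like cells were cluster 21, where all 10 endothelial markers counted, with 46 SHP099 and 30 control cells. Phagocyte-like cells, 2766 and 2663 in the SHP099 and control libraries, were 6 clusters with macrophage or monocyte markers. T-cell-like cells, 398 and 516, served as a background, because T cells are not known to make fibrillar collagen.

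The remaining large class was set by the near absence of Xist, the RNA that coats the inactive X chromosome in female cells. Xist stood at 3.0 CPM (the gene's UMIs over all UMIs of the class, on the usual CPM scale) in the SHP099 library and 2.8 CPM in the control library, against 976 and 1025 CPM in fibroblast-like cells. These Xist-negative cells numbered 4296 in the SHP099 library and 4186 in the control library. All 6 MC38 marker genes had UMIs in them, with a summed 534 and 604 CPM. Markers of epithelium were nearly absent at 0.2 and 0.3 CPM, and Epcam, Krt19, Krt20 and Cldn7 were at 0. The 12 fibroblast markers summed to 1682 and 1260 CPM there, but the proteoglycan gene Dcn alone made 1504 and 1132 CPM of this. In fibroblast-like cells the list summed to 5261 and 6908 CPM, of which Dcn made 1337 and 2044 CPM. Cluster 0, 1 of the 8 Xist-negative clusters, had the fibroblast markers Clec3b and Dpt among its leading genes. The class is therefore called by its rule rather than by a cell type.

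Col3a1 was abundant in both Xist-negative and fibroblast-like cells and Col1a2 in fibroblast-like cells, so the DNA before their starts is shown side by side. Both stretches are on the plus strand of build GRCm38.p6 and credited to RefSeq, with the motifs searched for in capitals. The Col3a1 stretch covers the 250 bases before the RefSeq gene start, chr1:45311288-45311537. The Col1a2 stretch covers only the 123 bases of that window that lie outside annotated exons, chr6:4505370-4505492. That window precedes the RefSeq start at 4505618, whereas the GENCODE gene begins further upstream at 4504814, so the stretch lies inside the GENCODE gene.
Col3a1: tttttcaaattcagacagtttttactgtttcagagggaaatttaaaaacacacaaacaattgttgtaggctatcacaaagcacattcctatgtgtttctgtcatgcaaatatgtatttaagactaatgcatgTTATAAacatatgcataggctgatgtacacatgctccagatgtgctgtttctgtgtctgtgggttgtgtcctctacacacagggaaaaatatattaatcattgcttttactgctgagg
Col1a2: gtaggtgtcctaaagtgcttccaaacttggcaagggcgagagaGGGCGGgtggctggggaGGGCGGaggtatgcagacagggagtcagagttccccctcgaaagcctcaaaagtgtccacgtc
The capitals in Col3a1 are TATAA read on both strands, which overlap, starting 118 and 117 bases before the gene start. The capitals in Col1a2 are GGGCGG, a GC box, starting 205 and 188 bases before its start. The whole Col1a2 window also holds 1 CCAAT, which the printed stretch leaves out. TATAA was present in 22.8% of the 32851 RefSeq windows of this length, CCAAT in 33.8% and GGGCGG in 32.7%, on either strand. Of the 35 collagen genes with a window, 7 held TATAA, 13 held CCAAT and 21 held GGGCGG. These are letter matches only, and the data hold no measurement of binding there.

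Of the 44 genes, 21 were measured in at least 1 of the 4 classes, which means at least 10 CPM in either library and at least 20 UMIs over both. Only 6 were measured in all 4 classes, namely Col3a1, Col4a1, Col5a1, Col6a1, Col6a2 and Col6a3. In each library 18 of the 21 were highest in fibroblast-like cells, and 3, Col4a1, Col4a2 and Col18a1, were highest in endothelial-like cells. Another 23 were measured in no class. The 3' protocol counts each captured molecule once whatever its length, so levels were not divided by gene length.

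**Figure D1:**
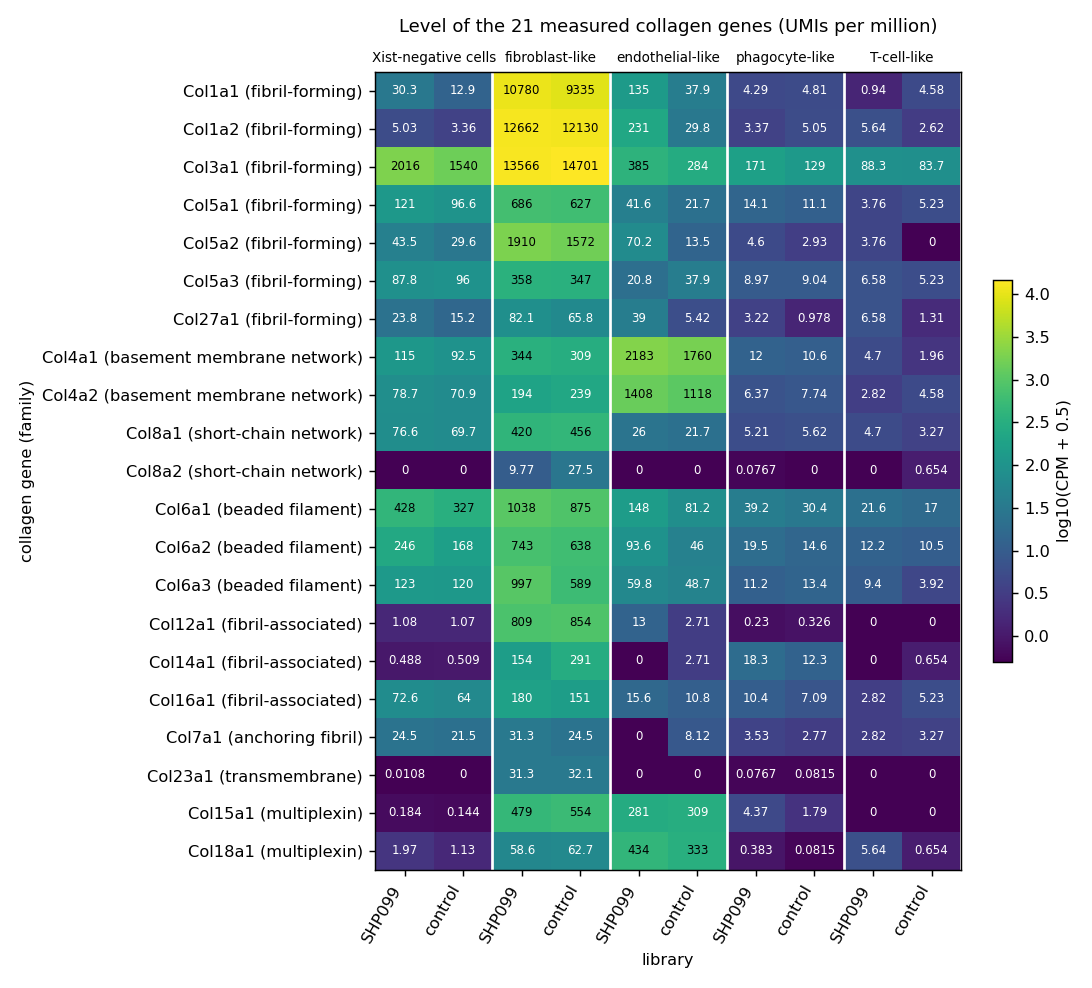
Level of the 21 measured collagen genes in CPM (printed in each cell, with colour on a log10 scale) for 5 classes of cells, SHP099 left and control right within each class. Fibroblast-like cells are brightest for Col1a1, Col1a2 and Col3a1, endothelial-like cells for Col4a1 and Col4a2, and within the Xist-negative columns Col3a1 is brightest.

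Per cell, fibroblast-like cells carried the most collagen RNA, with a mean of 409 collagen UMIs per SHP099 cell and 334 per control cell. Their summed collagen level was 45557 CPM (44974 to 46146) in the SHP099 library and 43933 CPM (43426 to 44444) in the control library. Yet they were 0.740% of SHP099 cells and 1.12% of control cells and held 6.60% and 9.02% of all collagen UMIs. Xist-negative cells, with means of 75.1 and 68.0 collagen UMIs per cell, held 91.4% of collagen UMIs in the SHP099 library and 89.3% in the control library. They were 55.8% and 54.4% of cells, so cell number and depth both enter this share. Endothelial-like cells held 0.609% and 0.487%, and phagocyte-like cells 1.26% and 1.04%.

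The holders differed between collagen types. Xist-negative cells held 95.1% of SHP099 and 93.3% of control Col3a1 UMIs, and 90.3% and 91.1% of the UMIs of Col4a1 and Col4a2 together. Of the UMIs of Col1a1 and Col1a2 together, they held 21.04% and 10.7%, while fibroblast-like cells held 77.3% in the SHP099 library and 88.3% in the control library. Type I collagen RNA was thus found mostly in the small fibroblast-like class, and type III and IV collagen RNA mostly in the large Xist-negative class.

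**Figure D2:**
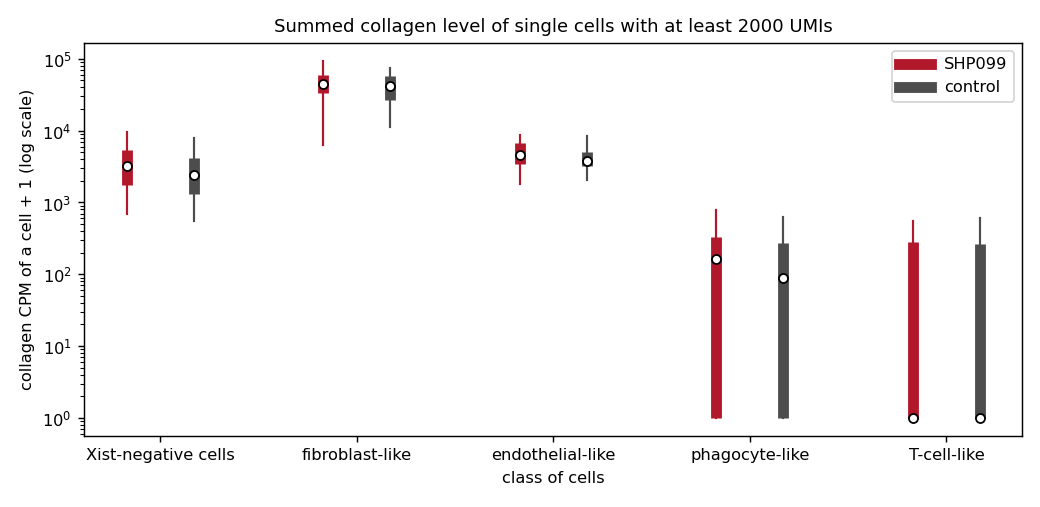
Summed collagen level of single cells with at least 2000 UMIs (CPM of the cell plus 1, log scale) by class, SHP099 left and control right. Points are medians, thick bars run from the 25th to the 75th percentile and thin lines from the 5th to the 95th. Medians were 44794 and 41341 CPM in SHP099 and control fibroblast-like cells, 3209 and 2426 CPM in Xist-negative cells, and 0 in T-cell-like cells of both libraries.

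In Xist-negative cells Col3a1 (1:45311538-45349706, plus strand, GRCm38) led all collagens, at 2016 CPM (2007 to 2025) in the SHP099 library and 1540 CPM (1532 to 1547) in the control library. A Col3a1 UMI was found in 98.6% of SHP099 and 98.2% of control Xist-negative cells. After thinning each cell to 2000 UMIs the shares were 85.1% (84.0 to 86.2) and 79.2% (77.9 to 80.4), against 12.9% (8.58 to 18.3) and 16.8% (12.9 to 21.3) of T-cell-like cells. Col1a2 (6:4504814-4541544, plus strand), the partner chain of type I collagen, stood at only 5.03 and 3.36 CPM in Xist-negative cells. That was within the counting error of T-cell-like cells, which had 5.64 CPM (2.07 to 12.3) and 2.62 CPM (0.712 to 6.70). In fibroblast-like cells, Col1a2 reached 12662 CPM in the SHP099 library and 12130 CPM in the control library, close to Col3a1 at 13566 and 14701 CPM.

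The UMI ratio of Col1a2 to Col3a1 was therefore 0.00249 in SHP099 and 0.00218 in control Xist-negative cells, against 0.933 and 0.825 in fibroblast-like cells. Col1a1 (11:94936224-94953042, plus strand) was present in Xist-negative cells above the background, at 30.3 CPM (29.2 to 31.5) in the SHP099 library and 12.9 CPM (12.2 to 13.6) in the control library. T-cell-like cells had 0.940 CPM (0.0238 to 5.23) and 4.58 CPM (1.84 to 9.43). Col1a1 had UMIs in 5.51% (4.84 to 6.24) of SHP099 and 2.68% (2.21 to 3.22) of control Xist-negative cells thinned to 2000 UMIs. No thinned T-cell-like cell of the SHP099 library had a Col1a1 UMI, 0 of 202 cells, which allows a share of up to 1.49%. Of the 327 of the control library 0.92% did, a share that rests on few cells. Without thinning, 18.1% of SHP099 and 10.4% of control Xist-negative cells had one, with median depths of 20154.5 and 24315.5 UMIs per cell. The T-cell-like medians were 2036 and 2388.5 UMIs, and thinning left out 196 and 189 of those cells. Of the Xist-negative cells with a Col1a1 UMI, 71 of 776 SHP099 cells and 32 of 435 control cells also had a Col1a2 UMI. Among all Xist-negative cells, 298 of 4296 SHP099 and 294 of 4186 control cells had a Col1a2 UMI.

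The other fibril-forming chains of Xist-negative cells were those of type V collagen, which co-assembles with types I and III, and Col27a1. Col5a1 was at 121 and 96.6 CPM, Col5a3 at 87.8 and 96.0 CPM and Col5a2 at 43.5 and 29.6 CPM in the SHP099 and control libraries. The order of the chains differed from that in fibroblast-like cells, where Col5a2 led with 1910 and 1572 CPM and Col5a1 had 686 and 627 CPM. The UMI ratio of Col5a1 to Col5a2 was 2.79 (2.69 to 2.89) and 3.26 (3.13 to 3.40) in Xist-negative cells, against 0.359 (0.317 to 0.406) and 0.399 (0.355 to 0.448) in fibroblast-like cells.

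Type VI collagen followed Col3a1 in abundance in Xist-negative cells. Col6a1 stood at 428 CPM in the SHP099 library and 327 CPM in the control library, Col6a2 at 246 and 168 CPM and Col6a3 at 123 and 120 CPM. Col6a1 (10:76708792-76726168) and Col6a2 (10:76595762-76623630) lie near each other on the minus strand. Col6a3 was lower relative to Col6a1 in Xist-negative than in fibroblast-like cells, with UMI ratios of 0.287 and 0.367 against 0.960 and 0.673. Col4a1 (8:11198423-11312826, minus strand) and Col4a2 (8:11312805-11449287, plus strand), neighbours read in opposite directions, were at 115 and 92.5 CPM and at 78.7 and 70.9 CPM. Col8a1, a short-chain collagen of vessel walls, Col16a1 and Col7a1, the anchoring fibril collagen of skin, were each measured between 21.5 and 76.6 CPM.

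Collagen RNA was unevenly spread over the Xist-negative clusters, although no collagen gene entered the clustering. Cluster 0 was highest, with a summed 6501 CPM in the SHP099 library and 6423 CPM in the control library. Cluster 2 had 4809 and 4263 CPM and cluster 1 had 3612 and 3067 CPM. Cluster 11, led by mitosis genes such as Top2a, had 2269 and 1975 CPM, and cluster 7 had 2055 and 1560 CPM. Cluster 13, led by the hypoxia marker Car9 among others, had 1896 and 1708 CPM. Col1a1 was more restricted than Col3a1. It reached 91.3 and 59.9 CPM in cluster 0 and 52.9 and 43.6 CPM in cluster 1, but 4.98 and 4.39 CPM in cluster 7. Clusters 0 and 1 held 61.7% of SHP099 and 52.4% of control Col1a1 UMIs of the class in 33.8% and 20.1% of its cells.

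**Figure D3:**
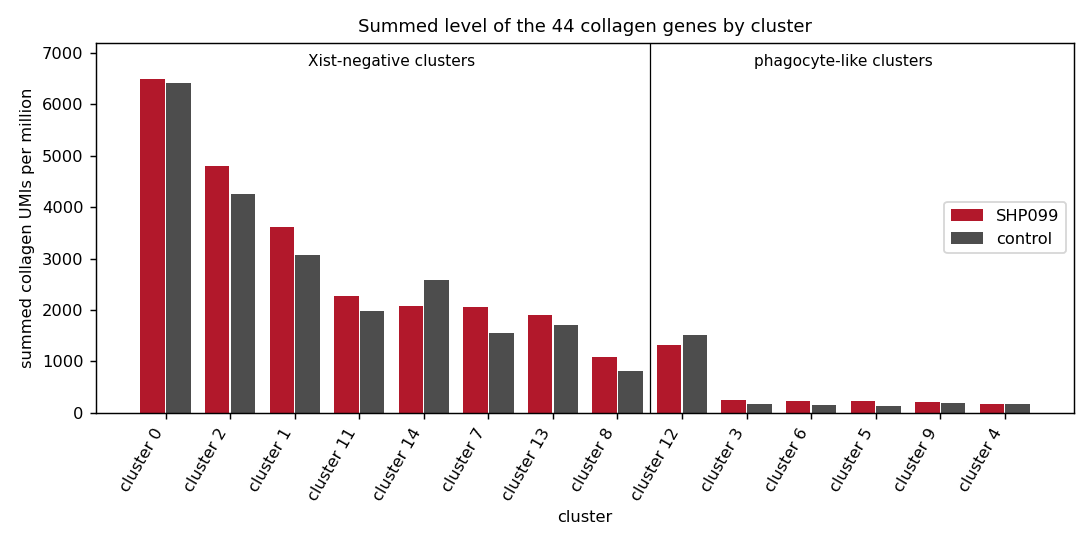
Summed level of the 44 collagen genes (CPM) in each Xist-negative and phagocyte-like cluster, SHP099 left and control right, ordered within each class by the SHP099 level. Xist-negative clusters run down from cluster 0, and among phagocyte-like clusters cluster 12 stands apart at 1309 and 1520 CPM.

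Between the libraries, collagen RNA was modestly higher in SHP099 Xist-negative cells. The summed level was 3498 CPM (3486 to 3510) in the SHP099 library and 2732 CPM (2721 to 2742) in the control library, a log2 ratio of 0.36 (0.35 to 0.36). Of 14 measured members 13 had a ratio above 0, with a median of 0.32, while the median of all 7035 measured genes of the class was 0.02. A ratio of at least 1.5-fold was reached upwards by 2 members, Col1a1 and Col27a1, where 1.12% of all measured genes reached it. No member was lower by that much, against 0.227% of all measured genes.

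Col1a1 had the largest ratio among them, with 30.3 CPM (29.2 to 31.5) in the SHP099 library and 12.9 CPM (12.2 to 13.6) in the control library, a log2 ratio of 1.2. Ratios of single genes carry a prior of 0.5 CPM, and their intervals, here 1.14 to 1.33, do not. Col27a1, a fibril-forming chain known from cartilage, had 23.8 and 15.2 CPM and a log2 ratio of 0.63 (0.56 to 0.75). Col6a2 and Col5a2 followed, each with a log2 ratio of 0.55, with intervals of 0.53 to 0.58 and 0.49 to 0.62. Col3a1 and Col6a1 each had 0.39. Col6a3 was nearly level at 0.03, with an interval that includes 0, and Col5a3 alone had a ratio below 0, at -0.13 (-0.17 to -0.09).

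The makeup of the class moved with this difference, since cluster 0, the richest in collagen, held 824 SHP099 and 384 control cells. Its own summed log2 ratio was 0.02, with an interval that includes 0. Summed collagen was higher in SHP099 cells in 7 of the 8 clusters, with log2 ratios from -0.31 in cluster 14 to 0.41 in cluster 8. With the 7 clusters of at least 50 cells in each library weighted alike, the summed log2 ratio was 0.11 and 1 member, Col27a1, was at least 1.5-fold higher, at 0.65. For Col1a1 that weighting gave 0.47, below 1.5-fold. Without cluster 0, a choice made after the data were seen, the summed ratio was 0.27, Col1a1 had 0.99 and Col27a1 0.58, just below 1.5-fold. Col1a1 was higher in SHP099 cells in 5 of the 6 clusters where it was measured, from -0.53 in cluster 14 to 1.43 in cluster 11. Col27a1 was higher in all 6 of its measured clusters, from 0.39 to 1.08, and Col5a3 in 2 of 8. Median depths differed too, with 20154.5 UMIs per SHP099 cell and 24315.5 per control cell, and their part in the ratios was not tested.

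**Figure D4:**
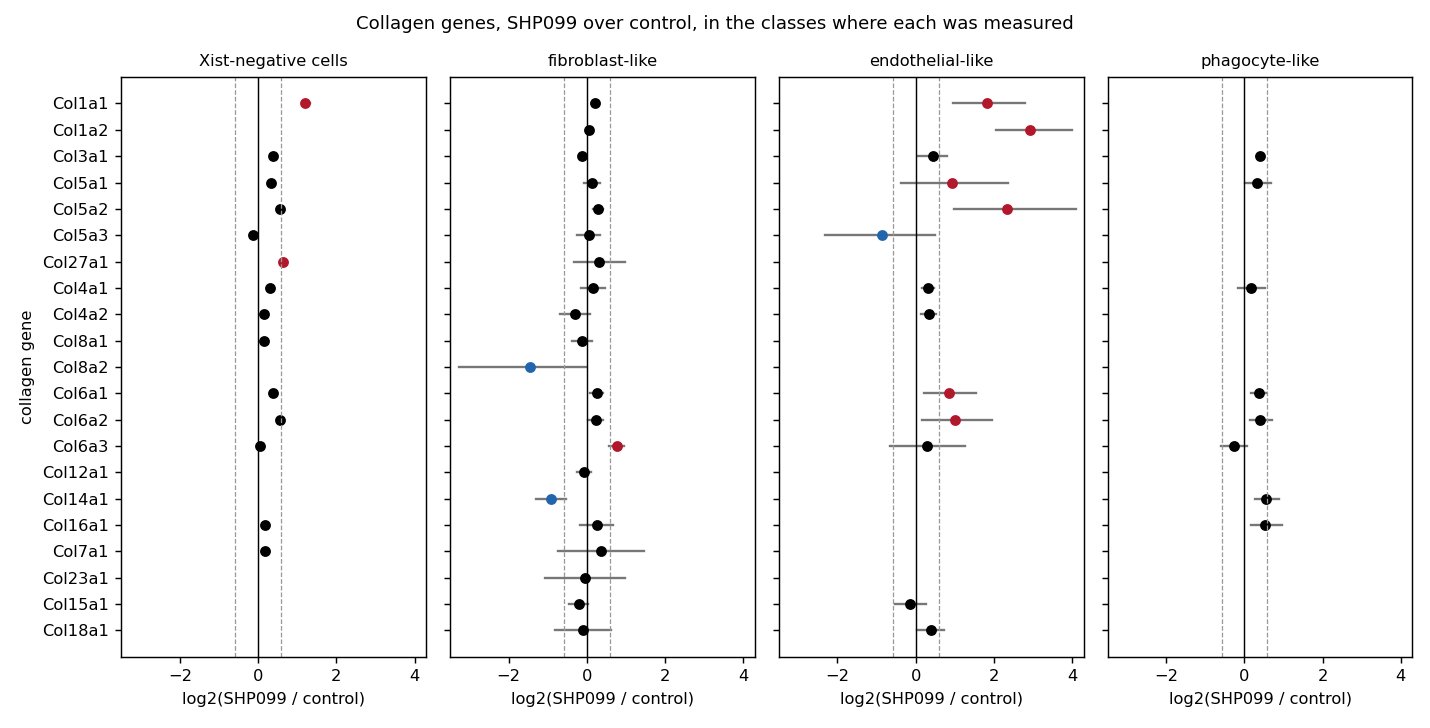
Log2 ratio of SHP099 over control for each collagen gene in each class where it was measured. Points are ratios with a prior of 0.5 CPM, lines are exact 95% counting intervals without it, dashed lines mark 1.5-fold, and red and blue points lie beyond it upwards and downwards. Xist-negative ratios lie mostly just right of 0, and the widest lines belong to the endothelial-like cells.

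In fibroblast-like cells most collagens differed little between the libraries. Their summed log2 ratio was 0.05 (0.03 to 0.08), but it was 0.22 with each cell counted alike and turned to -0.14 with cells assigned by their own markers. In all, 21 members were measured, with a median ratio of 0.06 against 0.03 over all 5812 measured genes. Col6a3 alone was at least 1.5-fold higher, where 12.9% of all measured genes were. Col14a1 and Col8a2 were at least 1.5-fold lower, where 10.5% of all measured genes were. These are 4.76% and 9.52% of the measured members, no more than over all measured genes.

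Col6a3 had 510 UMIs, 997 CPM (912 to 1087), in SHP099 and 385 UMIs, 589 CPM (532 to 651), in control fibroblast-like cells, a log2 ratio of 0.76 (0.57 to 0.95). Its partner chains differed less, Col6a1 by 0.25 (0.07 to 0.42) and Col6a2 by 0.22 (0.01 to 0.42). Col14a1 (15:55307750-55520803, plus strand) had 79 UMIs, 154 CPM (122 to 192), in the SHP099 library and 190 UMIs, 291 CPM (251 to 335), in the control library, a log2 ratio of -0.91 (-1.31 to -0.53). It had UMIs in 23 of 57 SHP099 and 50 of 86 control cells. Type XIV collagen binds fibrils and is known to limit their width. Col8a2 rested on 5 and 18 UMIs and had a ratio of -1.45 (-3.28 to -0.01).

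The chains of type I and III collagen were close to level in this class. Col1a1 was at 10780 and 9335 CPM in SHP099 and control cells, a log2 ratio of 0.21 (0.15 to 0.26), Col1a2 had 0.06 (0.01 to 0.11) and Col3a1 -0.12 (-0.16 to -0.07). Col5a2 was at 0.28 (0.15 to 0.41). Col12a1, a fibril-associated collagen, stood at 809 and 854 CPM, and was at 1.08 and 1.07 CPM in Xist-negative cells. Col15a1 was at 479 and 554 CPM. Col8a2, Col12a1 and Col23a1 were measured in fibroblast-like cells and in no other of the 4 classes.

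Other markers were present in the fibroblast-like class. The pericyte list summed to 776 CPM in SHP099 and 546 CPM in control cells, with Rgs5 UMIs in 7 and 5 cells. Without those cells the summed collagen ratio was 0.09, Col6a3 had 0.82 and Col14a1 -0.84. The macrophage list summed to 1339 and 811 CPM, the epithelial list to 248 and 7.7 CPM and the MC38 list to 172 and 355 CPM. The part of the MC38 and macrophage markers in the ratios was not tested. With the Epcam-positive cell removed, which left 56 SHP099 cells, the summed ratio was 0.10.

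In endothelial-like cells the basement membrane collagens led. Col4a1 was at 2183 CPM (2038 to 2336) in SHP099 and 1760 CPM (1627 to 1901) in control cells, and Col4a2 at 1408 CPM (1292 to 1532) and 1118 CPM (1013 to 1232). Type IV made up 64.3% and 68.6% of the collagen UMIs of this class, against 5.54% and 6.00% in Xist-negative cells. Col4a1 UMIs were found in 44 of 46 SHP099 and 29 of 30 control cells. The multiplexins were also strong, with Col18a1, whose product gives rise to endostatin, at 434 and 333 CPM and Col15a1 at 281 and 309 CPM. In Xist-negative cells the same genes had 1.97 and 1.13 CPM and 0.184 and 0.144 CPM.

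Summed collagen was 5587 CPM (5353 to 5828) in SHP099 and 4197 CPM (3991 to 4411) in control endothelial-like cells, a log2 ratio of 0.41 (0.32 to 0.51). Of 13 measured members 6 were at least 1.5-fold higher, where 15.8% of all 4701 measured genes were, and 1, Col5a3, was lower, where 13.0% were. Col5a3 rested on 8 SHP099 and 14 control UMIs, with a log2 ratio of -0.85 (-2.33 to 0.49), an interval on both sides of level. The median of the members was 0.44, against 0.03 over all measured genes. Col4a1 and Col4a2 differed less, with log2 ratios of 0.31 (0.16 to 0.46) and 0.33 (0.15 to 0.52). Col18a1 had 0.38 (0.04 to 0.73), and Col15a1 had -0.14 (-0.53 to 0.26).

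The 6 higher members were fibrillar or type VI chains, Col1a1, Col1a2, Col5a1, Col5a2, Col6a1 and Col6a2, and their UMIs sat in few cells. Col1a2 had 89 UMIs in 6 of 46 SHP099 cells and 11 UMIs in 2 of 30 control cells, and 3 SHP099 cells held 91.0% of the 89. Its log2 ratio was 2.94 (2.05 to 4.01), and that of Col1a1 was 1.82 (0.96 to 2.80). Col5a1 had 16 SHP099 and 8 control UMIs and a log2 ratio of 0.92 (-0.37 to 2.37), an interval on both sides of level. Pericyte markers moved with these genes. Their list, with 7 of 8 genes present in each library, summed to 712 CPM in SHP099 and 168 CPM in control endothelial-like cells, and Rgs5, a pericyte gene, had 113 UMIs in 9 SHP099 cells and 20 UMIs in 1 control cell. The fibroblast list summed to 265 and 520 CPM, of which the proteoglycan gene Dcn made 59.8 and 385 CPM, with UMIs in 7 SHP099 and 8 control cells. Pdgfrb, which marks pericytes as well as fibroblasts, had 19 and 3 UMIs. Dcn is not particular to fibroblast-like cells here, since Xist-negative cells had 1504 and 1132 CPM. The MC38 list summed to 85.8 and 176 CPM in endothelial-like cells. Which cells these marker UMIs came from was not tested.

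Without every cell that had a UMI of Rgs5, Pdgfra, Pdgfrb or Dcn, 32 SHP099 and 22 control cells were left. In them Col1a1 had 0 UMIs in both libraries and Col1a2 had 0 UMIs in the SHP099 library and 1 in the control library. Col5a1, Col5a2, Col5a3, Col6a1 and Col6a2 kept at most 3 UMIs in either library. None of the 6 higher members, nor Col5a3, then had enough UMIs to count as measured. Among the collagens still measured 1 was at least 1.5-fold higher, Col3a1 with 17 and 6 UMIs, and the summed log2 ratio was 0.18. Col4a1 kept 2234 and 1905 CPM there, a log2 ratio of 0.23 (0.03 to 0.43), and Col18a1 516 and 466 CPM. This choice of cells was made after the data were seen.

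Phagocyte-like cells had little collagen RNA, a summed 342 CPM (332 to 352) in the SHP099 library and 270 CPM (261 to 280) in the control library, against 183 CPM (158 to 211) and 154 CPM (135 to 175) in T-cell-like cells. The log2 ratio was 0.34 (0.27 to 0.40). The makeup of the class moved with it, since cluster 12, the richest in collagen, held 445 SHP099 and 273 control cells, cluster 5 held 241 and 65 and cluster 6 held 374 and 684. With clusters weighted alike the ratio was 0.049, and within cluster 12 it was -0.21 (-0.31 to -0.12). Of 8 measured members none reached 1.5-fold upwards or downwards, where 4.0% and 1.65% of all 6856 measured genes did. Their median was 0.38, against 0.05 over all measured genes. Col3a1, the highest, had 171 and 129 CPM. After thinning, 17.9% (16.4 to 19.4) of SHP099 and 14.3% (13.0 to 15.8) of control cells had a Col3a1 UMI, and their intervals overlap those of the T-cell-like shares given above.

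Some chains of phagocyte-like cells stood in nearly the ratio of Xist-negative cells, and others did not. The UMI ratio of Col6a1 to Col3a1 was 0.230 (0.208 to 0.253) in SHP099 and 0.236 (0.211 to 0.265) in control phagocyte-like cells, and 0.245 and 0.203 in T-cell-like cells. It was 0.212 and 0.213 in Xist-negative cells but 0.0765 and 0.0595 in fibroblast-like cells. The ratio of Col1a2 to Col3a1 was 0.0198 (0.0143 to 0.0266) in SHP099 and 0.0393 (0.0300 to 0.0506) in control phagocyte-like cells, above the 0.00249 and 0.00218 of Xist-negative cells. T-cell-like cells were above these too, with 0.0638 (0.0228 to 0.144) on 6 Col1a2 UMIs and 0.0313 (0.00839 to 0.0820) on 4. The ratio of Col1a1 to Col3a1 was 0.0252 and 0.0374 in phagocyte-like cells, against 0.0150 and 0.00839 in Xist-negative cells. It was 0.0106 and 0.0547 in T-cell-like cells, on 1 and 7 Col1a1 UMIs. Cluster 12, with the macrophage marker Mrc1 among its leading genes and medians of only 2147 and 1996 UMIs per cell, had by far the most collagen of these clusters, at 1309 and 1520 CPM. Its own ratio of Col6a1 to Col3a1 was 0.223 and 0.244. Its ratio of Col1a2 to Col3a1 was 0.00487 (0.00158 to 0.0114) in the SHP099 library and 0.0143 (0.00711 to 0.0257) in the control library. In the other 5 clusters Col3a1 ranged from 91.9 to 118 CPM in the SHP099 library and from 61.2 to 102 CPM in the control library, against 88.3 and 83.7 CPM in T-cell-like cells. Whether free RNA gave these UMIs was not tested.

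Col14a1 stood furthest from the levels of Xist-negative cells among the measured members. It stood at 18.3 CPM (16.1 to 20.8) in SHP099 and 12.3 CPM (10.4 to 14.4) in control phagocyte-like cells, above its 0.488 and 0.509 CPM in Xist-negative cells. T-cell-like cells had 0 UMIs of Col14a1 in the SHP099 library and 1 UMI, 0.654 CPM (0.0166 to 3.64), in the control library. After thinning, 3.14% (2.49 to 3.91) of SHP099 and 2.46% (1.87 to 3.17) of control phagocyte-like cells had a UMI. No thinned T-cell-like cell had one, which allows up to 1.49% of 202 SHP099 and 0.917% of 327 control cells. Without thinning the phagocyte-like shares were 6.72% and 4.92%, at median depths of 4213 and 4339 UMIs.

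Fibroblast-like cells had far more Col14a1, beside abundant Col1a2. The UMI ratio of Col14a1 to Col1a2 was 5.43 (3.93 to 7.67) in SHP099 and 2.44 (1.80 to 3.33) in control phagocyte-like cells, and 0.0122 and 0.0240 in fibroblast-like cells. Within the phagocyte-like class, Col14a1 was at 32.1 and 15.3 CPM in cluster 5, 26.8 and 14.7 CPM in cluster 6, led by Mmp12, Spp1 and Arg1, and 18.5 and 19.98 CPM in cluster 3, which carries Ms4a7 and C1qa. In cluster 12 it was at 19.9 and 12.96 CPM, on 29 and 13 UMIs. It was at 5.32 and 3.80 CPM in cluster 4 and had 0 UMIs in cluster 9, the cluster led by the monocyte genes Chil3, Ly6c2 and Plac8. No cell had many molecules, since 186 SHP099 cells shared 239 UMIs with at most 4 in a cell, and 131 control cells shared 151 with at most 3. The log2 ratio of Col14a1 between the libraries was 0.56 (0.28 to 0.88), just under 1.5-fold. Col15a1, at 4.37 and 1.79 CPM, was below the level at which a gene counted as measured in this class.

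**Figure D5:**
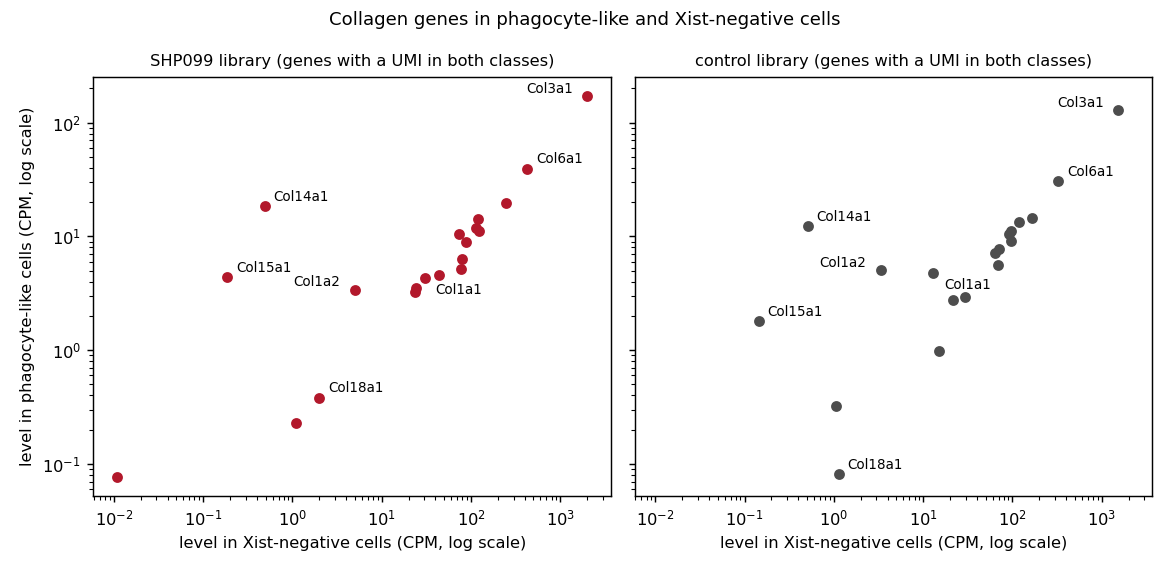
Level of each measured collagen gene in phagocyte-like cells against Xist-negative cells (CPM, log scales), SHP099 left and control right, for genes with a UMI in both classes. Most genes rise together, while Col14a1, at 18.3 and 12.3 CPM in phagocyte-like cells, and Col15a1 lie well to the left.

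Genes that process, export, join, bind or cut collagen were read in the same classes. In Xist-negative cells 1.12% of all measured genes were at least 1.5-fold higher and 0.227% lower. There 14 of 17 hydroxylation and folding genes were measured and 1 was at least 1.5-fold higher, P4ha2, a prolyl hydroxylase subunit, with 22.5 and 12.2 CPM and a log2 ratio of 0.86 (0.78 to 0.99). Plod2, a lysyl hydroxylase, had 0.50 (0.47 to 0.54). Of 7 measured genes for cross-linking and fibril assembly, 2 were higher. These were Postn, encoding the matricellular protein periostin, at 82.7 and 29.1 CPM and 1.49 (1.44 to 1.57), and Bgn, the small proteoglycan biglycan, at 38.5 and 17.3 CPM and 1.13 (1.07 to 1.24). Postn was among the leading genes of cluster 0, with 824 SHP099 and 384 control cells, and P4ha2 among those of cluster 13, with 210 and 87. The part of this makeup in the partner gene ratios was not tested. Of 5 measured proteases, 2 were higher, the gelatinase genes Mmp2 at 0.75 (0.67 to 0.86) and Mmp9 at 0.83 (0.75 to 1.00). The measured genes for export and propeptide cleavage (7 of 12), receptors (3 of 13) and basement membrane partners (7 of 16) had none past 1.5-fold. No gene of the 6 lists was lower by that much in Xist-negative cells.

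In fibroblast-like cells 12.9% of all measured genes were at least 1.5-fold higher and 10.5% lower, and the lists held few genes each. There 2 of 15 measured hydroxylation and folding genes were at least 1.5-fold higher, P4ha1 at 0.80 (0.43 to 1.18) and P4ha2 at 0.75 (0.305 to 1.199). None of 8 export genes and none of 4 receptors passed. Of 12 cross-linking and assembly genes 3 were lower, among them Tnxb, encoding tenascin-X, at 43.0 and 122 CPM with -1.50 (-2.26 to -0.81), and Tgm2 with -0.76 (-1.55 to -0.03). None of 10 measured basement membrane partners was at least 1.5-fold higher. Of 7 proteases 1 was higher, the collagenase Mmp13, with 612 and 344 CPM and 0.83 (0.58 to 1.08).

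In endothelial-like cells 15.8% of all measured genes were at least 1.5-fold higher and 13.0% lower. There 3 of 5 measured export genes were higher, led by the vesicle coat gene Sec23a at 1.38 (0.18 to 2.78). Of 7 cross-linking and assembly genes 3 were higher and 2 lower. Postn had 166 and 24.4 CPM, 2.75 (1.76 to 3.96), and Bgn 754 and 154 CPM, 2.28 (1.87 to 2.72), in the class whose pericyte markers, given above, were also higher. Dcn had 59.8 and 385 CPM, -2.68 (-3.39 to -2.04). Among 8 basement membrane partners, 1 was higher, Agrn, encoding agrin, at 1.11 (0.05 to 2.30), and none of 11 hydroxylation genes or 5 receptors passed, while 1 of 3 proteases, Ctsb, was higher at 0.63 (0.36 to 0.90).

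In phagocyte-like cells 2 of 6 measured proteases were at least 1.5-fold higher and 1 was lower, where 4.0% and 1.65% of all measured genes were. Ctsk, encoding the collagen-cutting cathepsin K, was at 23.7 and 7.25 CPM, a log2 ratio of 1.64 (1.36 to 2.07), and Mmp9 had 0.86 (0.57 to 1.22). Ctsl was lower at 361 and 579 CPM, -0.68 (-0.73 to -0.63). Tgm2 was lower among 4 measured cross-linking genes, at 246 and 439.5 CPM, -0.83 (-0.90 to -0.77). Plod2 was the 1 of 9 hydroxylation genes that was higher, at 0.85 (0.54 to 1.25). None of 4 export genes or 4 receptors passed, and no basement membrane partner was measured. The mix of phagocyte-like clusters differed between the libraries, as described above for the collagen level of this class. How far that mix shaped these partner ratios was not tested.

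The 23 collagens measured in no class were rare in these tumours. Col2a1, the collagen of cartilage, Col19a1 and Col25a1 had no UMI in any cell. The most UMIs among the 23 were 66 in the SHP099 library and 96 in the control library, for Col9a3, of which Xist-negative cells held 64 and 92. Col10a1, known from growth plate cartilage, had 0 and 1 UMI. Of the type IV chains of special basement membranes, Col4a4 had 58 UMIs in the SHP099 library and 39 in the control library. The others, Col4a3, Col4a5 and Col4a6, had at most 2 UMIs in either library.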

How the data were processed

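Each library was deposited by the authors as a matrix of UMI counts per gene and barcode. Cell Ranger and the build mm10 (GRCm38) are named in the submitters' processing notes, and output format 3.1.0 per the file headers. The annotation behind the counts was not given in the sources used here. No value was altered before use.

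Barcodes with at least 200 genes and at most 20% mitochondrial UMIs were kept, 7900 SHP099 and 7952 control, and 198 and 264 Scrublet doublet calls were removed. Both libraries were clustered together on 2000 variable genes with 30 components, 15 neighbours and Leiden resolution 1.0 (Python 3.11.15, scanpy 1.11.5, scipy 1.17.1). Collagen and partner genes took no part in the clustering. The partner genes Dcn, Lum, Fap, Mrc1 and Mmp8 were also in the marker lists used to name clusters. A cluster with under 50 CPM of Xist was kept apart. Others were named by the marker list that stood highest in them, if at least 3 of its markers counted. To count, a marker needed UMIs in at least 10% of the cluster's cells and a level at least 2-fold above all other cells.

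UMIs were summed per class and library and divided by the class total. Levels have exact Poisson intervals, shares exact binomial (Clopper-Pearson) ones and ratios exact conditional binomial ones. For shares, 2000 UMIs were drawn at random from each cell that had as many, and a count of 0 was given a limit of 3 counts. The ratio, its interval and the 1.5-fold call were tested on simulated Poisson counts per class. Doublet calls, clustering, naming and thinning were not tested in this way. UMIs gathered in few cells were not simulated. Positions came from GENCODE M21. Members measured in at least 1 class were given with values, and of each partner list the 2 highest and 2 lowest ratios per class could be named. Members, markers and lists were chosen with earlier results of these data known. A result on lower ratios among the basement membrane partners in fibroblast-like cells is not reported here.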

Additional observations from a re-analysis of the deposited data

Results flagged for a closer look

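Results were listed here where a collagen gene lay on opposite sides of level in 2 classes and both counting intervals left out 0. For Col3a1 the log2 ratio of SHP099 over control was 0.39 in Xist-negative, 0.44 in endothelial-like and 0.41 in phagocyte-like cells, against -0.12 in fibroblast-like cells. These are differences of 0.51, 0.55 and 0.52. The endothelial-like value rests on few cells. Col3a1 had 148 UMIs in 20 of 46 SHP099 cells, 47 of them in 1 cell. It had 105 UMIs in 12 of 30 control cells, 45 of them in 1 cell. In phagocyte-like cells the thinned Col3a1 shares overlapped those of T-cell-like cells, and the makeup of the class differed between the libraries. For Col14a1 the log2 ratio was 0.56 in phagocyte-like and -0.91 in fibroblast-like cells, a difference of 1.47. With 1 library per group these differences were not tested.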

How the results depend on the processing

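No paired analysis was possible because each group has 1 library, and no replicate could be left out. Depth limits the fibroblast-like and endothelial-like classes most, with 57 and 46 SHP099 cells and 86 and 30 control cells. Values below are log2 ratios of SHP099 over control for the summed collagen level, and counts of members at least 1.5-fold higher or lower. Where they moved, the cause was not tested. In Xist-negative cells the summed ratio of 0.36 was 0.31 with each cell counted alike, 0.33 with median-ratio scaling, 0.36 with a mitochondrial limit of 10%, 0.28 with cells assigned by their own markers, 0.11 with clusters weighted alike and 0.27 without cluster 0. The 2 higher members became 1 with own markers, with a prior of 5 CPM, with clusters weighted alike and without cluster 0, and 0 with a minimum of 50 CPM. In fibroblast-like cells the summed ratio of 0.05 turned to -0.14 with own markers. It was 0.093 at resolution 2.0, 0.12 with doublets kept, 0.083 with the 10% limit, 0.087 with at least 500 genes, 0.22 with each cell alike, 0.021 with median-ratio scaling, 0.090 without Rgs5-positive cells and 0.10 without the Epcam-positive cell. Its 1 higher member became 2 with each cell alike, and its 2 lower ones 1 with a minimum of 50 CPM. In endothelial-like cells 0.41 became 0.19 with each cell alike and 0.18 without cells with Rgs5, Pdgfra, Pdgfrb or Dcn UMIs, and the 6 higher members became 3 with own markers and 1 without those cells. Without those cells none of the 6, nor the lower Col5a3, had enough UMIs to count as measured, and the 1 was Col3a1. The 1 lower member became 0 with doublets kept, the 10% limit, at least 500 genes, own markers, a minimum of 50 CPM, without shared barcodes and without those marker-positive cells. Col5a3 turned to 0.056 without shared barcodes, and Col1a2 to -3.52, on 0 and 1 UMI, without marker-positive cells. In phagocyte-like cells 0.34 became 0.25 with at least 500 genes, 0.58 with own markers, 0.049 with clusters weighted alike and 0.46 without cluster 12. The 0 higher members became 1 with each cell alike, with clusters weighted alike and without cluster 12, and 2 with own markers and with no CPM minimum. The 0 lower members became 1 with clusters weighted alike. The Col3a1 share of 85.1% in SHP099 Xist-negative cells was 71.0% when thinned to 1000 UMIs. Leaving out cluster 0, cluster 12 and the Rgs5-, Epcam- or marker-positive cells were choices made after the data were seen. Of 771 member values over all alternatives, 672 moved by less than their counting interval, 97 moved by more, and 2 past 1.5-fold, Col5a3 and Col1a2 above, changed sign. The minimum of 50 CPM and the setting with no CPM minimum cannot change a ratio. Their values are therefore among the 672 by construction. Counting also ratios within 1.5-fold, 31 of the 771 had another sign than reported.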
